A study of Mus musculus with 3 samples.

Results

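Type 2 cytokine and alarmin receptor genes, 7 of the 30905 in the gene tables, were followed by symbol through 3 single-cell libraries of mouse colon: Gata3, Il4, Il5, Il13, Il1rl1, Il17rb and Calca. The cells were CD45+ leukocytes that had been sorted by flow cytometry from C57BL/6 mice and captured with a droplet 3′-end kit that counts unique molecular identifiers (UMIs). Library C came from colon of healthy mice. Libraries T1 and T3 came from colon with low-grade and with high-grade intraepithelial neoplasia, in mice given 12 mg/kg azoxymethane (AOM), a carcinogen, by intraperitoneal injection and then 3 rounds of dextran sodium sulfate (DSS), which injures the colon lining, at 2.5% for 7 days with 14 days of water in between. The labels give an age of 6 to 8 weeks when the model was begun and male mice, and do not give the number of animals in a library. AOM, DSS and neoplasia were present together in T1 and T3 and absent in C, so their parts cannot be told apart, and the 2 neoplasia grades had 1 library each.

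GATA3 is the transcription factor that directs lymphocytes to the type 2 programme. Group 2 innate lymphoid cells (ILC2), which carry no T cell receptor, and T helper 2 cells make the cytokines IL-4, IL-5 and IL-13. IL-5 acts on eosinophils, IL-13 on goblet cells and smooth muscle, and IL-4 on B cells and macrophages. Damaged or stimulated epithelium releases the alarmin IL-33, bound by the receptor ST2 (Il1rl1), and tuft cells release IL-25, whose receptor includes IL17RB. Calca encodes calcitonin and the neuropeptide CGRP, which neurons release and ILC2 can also make. Mast cells and basophils make IL-4 and carry ST2, and a tissue-repair type of regulatory T cell in the gut carries both GATA3 and ST2.

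After barcodes with fewer than 200 genes or more than 20% mitochondrial UMIs were left out, 6004, 6143 and 4543 barcodes remained in C, T1 and T3, with median depths of 4933, 5272 and 1803 UMIs. T3 was thus the shallowest library. Between 35 and 39 barcode sequences occurred in any pair of libraries and were kept as separate cells. Ptprc, which encodes the sorted marker CD45, had a UMI in 88.8, 86.9 and 75.2% of them. Xist, the transcript of the inactive X chromosome, was at 1284, 1196 and 1361 UMIs per 1000000 UMIs (CPM), while Ddx3y, Uty and Eif2s3y of the Y chromosome had 0 UMIs in every library, which goes against the label of male mice. Haemoglobin transcripts marked T3: the 4 genes summed to 2.79, 1.20 and 4225 CPM in Foxp3 barcodes of C, T1 and T3.

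Barcodes were sorted into classes by raw UMIs of genes outside the 7. CD3-negative lymphoid barcodes had no Cd3d, Cd3e or Cd3g UMI and at least 2 UMIs of Il7r, Thy1, Il2rb, Ncr1 and Rora. The gate also required fewer than 2 UMIs of the myeloid genes Lyz2, C1qa, C1qb, Csf1r, S100a8 and S100a9. It required fewer than 2 of the B genes Cd79a, Cd79b and Ms4a1, and fewer than 2 of Cpa3. These barcodes numbered 155, 115 and 51 in C, T1 and T3. They were 2.58% (exact 95% interval 2.20 to 3.02), 1.87% (1.55 to 2.24) and 1.12% (0.837 to 1.47) of barcodes. With classes called on barcodes thinned to 1000 UMIs the order differed, with 2.39% in T1 and 3.08% in T3. Foxp3 barcodes, the regulatory T cell class, numbered 60, 267 and 84, and Cd4 barcodes, with CD3 and Cd4 but neither Foxp3 nor Cd8 UMIs, 378, 649 and 548. Mast barcodes, with at least 2 Cpa3 UMIs, numbered 11, 4 and 0, and B barcodes 2632, 2934 and 879. Within the CD3-negative class, 99, 83 and 38 barcodes had no UMI of the NK cell, ILC1 or ILC3 genes used for the split. In these, 8, 9 and 7 of 9 ILC2 marker genes were found, summing to 2126, 2267 and 1065 CPM, with Ptgdr2 at 0 in C and T3 and Nmur1 at 0 in T3. Rora is among these 9 and is also a gate gene, so part of the ILC2 sum was selected for by the gate. In Foxp3 barcodes the same 9 genes summed to 835, 1141 and 1406 CPM, above the subgroup in T3. T cell receptor transcripts, which the gate did not use, were also present: with Cd3d, Cd3e and Cd3g at 0 by the gate, 6 T cell markers summed to 898, 825 and 1257 CPM, above the ILC2 sum in T3. The class is therefore called by its gate, since whether its barcodes are innate cells or T cells was not settled by these markers.

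The 3 cytokine genes lie together on chromosome 11 of GRCm38: Il5 (ENSMUSG00000036117) at chr11:53720794-53725106 on the plus strand, and Il13 (ENSMUSG00000020383) at chr11:53631324-53634702 and Il4 (ENSMUSG00000000869) at chr11:53602982-53618669 on the minus strand. Il1rl1 (ENSMUSG00000026069) is at chr1:40429570-40465415 on the plus strand. Gata3 (ENSMUSG00000015619) is at chr2:9857078-9890034, Il17rb (ENSMUSG00000015966) at chr14:29996135-30008896 and Calca (ENSMUSG00000030669) at chr7:114631478-114636357, all on the minus strand. Genes on the other strand overlap Gata3, Il5 and Il17rb and 1 on the same strand overlaps Gata3, and strand-specific counting is not stated in the sources used here.

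Promoters of the 3 cytokine genes and of Il1rl1 are shown because their transcripts were found with those of Gata3 in the same barcodes, and GATA is the core of the motif that GATA factors bind. RefSeq (GRCm38.p6) gave all 7 genes a promoter, here 250 bases before to 50 after the start, and the start farthest upstream is shown for Il4 and Il1rl1. Capitals mark GATA or, on the other strand, TATC. The regions are chr11:53618616-53618915 (minus) for Il4, chr11:53720544-53720843 (plus) for Il5, chr11:53634653-53634952 (minus) for Il13 and chr1:40429320-40429619 (plus) for Il1rl1, each read 5′ to 3′ on the strand of the gene.
Il4: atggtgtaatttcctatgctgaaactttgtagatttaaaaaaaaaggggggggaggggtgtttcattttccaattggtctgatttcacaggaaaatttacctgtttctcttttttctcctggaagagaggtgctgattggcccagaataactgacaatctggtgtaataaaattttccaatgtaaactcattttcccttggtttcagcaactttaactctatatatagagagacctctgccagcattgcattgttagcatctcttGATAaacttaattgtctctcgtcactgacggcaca
Il5: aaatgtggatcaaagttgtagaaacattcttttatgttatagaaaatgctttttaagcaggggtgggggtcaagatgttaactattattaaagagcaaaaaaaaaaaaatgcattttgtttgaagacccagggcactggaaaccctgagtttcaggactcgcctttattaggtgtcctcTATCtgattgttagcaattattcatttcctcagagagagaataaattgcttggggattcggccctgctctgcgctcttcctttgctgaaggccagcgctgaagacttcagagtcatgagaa
Il13: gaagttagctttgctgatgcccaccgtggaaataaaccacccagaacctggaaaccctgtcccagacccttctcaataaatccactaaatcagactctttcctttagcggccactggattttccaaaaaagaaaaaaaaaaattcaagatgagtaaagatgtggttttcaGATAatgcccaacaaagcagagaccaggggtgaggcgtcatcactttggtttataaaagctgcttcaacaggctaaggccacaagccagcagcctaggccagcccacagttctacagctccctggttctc
Il1rl1: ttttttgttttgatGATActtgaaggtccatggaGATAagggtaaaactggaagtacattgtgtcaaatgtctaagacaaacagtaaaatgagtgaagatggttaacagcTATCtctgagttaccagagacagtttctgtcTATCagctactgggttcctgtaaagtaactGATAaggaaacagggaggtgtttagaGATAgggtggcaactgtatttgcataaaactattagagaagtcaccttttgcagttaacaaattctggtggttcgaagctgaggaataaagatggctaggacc
GATA on either strand occurred in 57.9% of 32851 mouse promoters of the same length, so the single match in each of the Il4, Il5 and Il13 windows was a common count. The other start of Il4 had 3 matches. The Il1rl1 window held 6 matches, between 236 and 53 bases before the start, and its other start 2; 12.6% of promoters held 3 or more. A match is a description of the letters only.

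Over all kept barcodes the cytokines, Il17rb and Calca were lowest in T3, while Gata3 and Il1rl1 stayed within 2-fold in every pair of libraries. Gata3 stood at 50.7, 45.3 and 38.4 CPM in C, T1 and T3, and Il1rl1 at 11.9, 12.4 and 10.6 CPM. Il4 fell from 244 and 421 UMIs in C and T1 (7.34 and 12.2 CPM) to 4 UMIs in T3 (0.280 CPM). Il5 was represented by 86, 85 and 1 UMIs (2.59, 2.47 and 0.0699 CPM), and Il13 by 96, 128 and 7, all 7 in a single T3 barcode. Il17rb had 59, 66 and 7 UMIs and Calca 142, 105 and 12, of which 8 came from 1 T3 barcode. In whole-library sums, fewer cells of a type and less RNA per cell cannot be told apart.

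A gene was counted as higher or lower when its CPM differed at least 2-fold between libraries with at least 20 UMIs over both and a 95% interval of the ratio that excluded equality. With 1 library per group there is no replicate and no p-value, and every interval covers counting error only, treating UMIs as independent. By this rule none of the 7 genes differed between T1 and C over all barcodes, where 2.06% of 13212 tested genes were higher and 4.63% lower. In T3 against C 5 of the 7 were lower, beside 9.26% of all tested genes lower and 6.97% higher. Their log2 ratios were -4.72 for Il4, -5.21 for Il5, -2.56 for Il13, -1.86 for Il17rb and -2.35 for Calca, against a median of -0.05 over all genes. The same 5 genes were lower in T3 against T1, beside 5.36% of genes lower and 7.13% higher, with log2 ratios of -5.45, -5.15, -2.93, -1.97 and -1.87 in that order. Both comparisons share the T3 library.

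The genes were concentrated in few barcodes. CD3-negative lymphoid barcodes held 35.6% of Gata3 UMIs in C, 82.6% of Il5, 63.4% of Calca, 54.2% of Il17rb, 46.9% of Il1rl1, 30.2% of Il13 and 27.9% of Il4, from 2.58% of the barcodes. In T1 these shares were 24.3, 89.4, 48.6, 40.9, 22.7, 41.4 and 20.9% in the same order, from 1.87% of barcodes. For some genes another class held more. Other CD3-positive barcodes, in neither the Foxp3 nor the Cd4 class, held 37.3% of Gata3 in C and 27.3% in T1. B barcodes held 32.3% of Il13 in C, and barcodes outside all classes 32.8% of Il4 in T1. In T3 the CD3-negative class held 5.46% of Gata3 and 7.24% of Il1rl1 UMIs and no Il4 or Il13. It also held 8 of the 12 Calca UMIs, the 1 Il5 UMI and 2 of the 7 Il17rb UMIs of T3. Of the Il1rl1 UMIs, Foxp3 barcodes held 3.05% in C, 30.2% in T1 and 58.6% in T3.

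**Figure D1:**
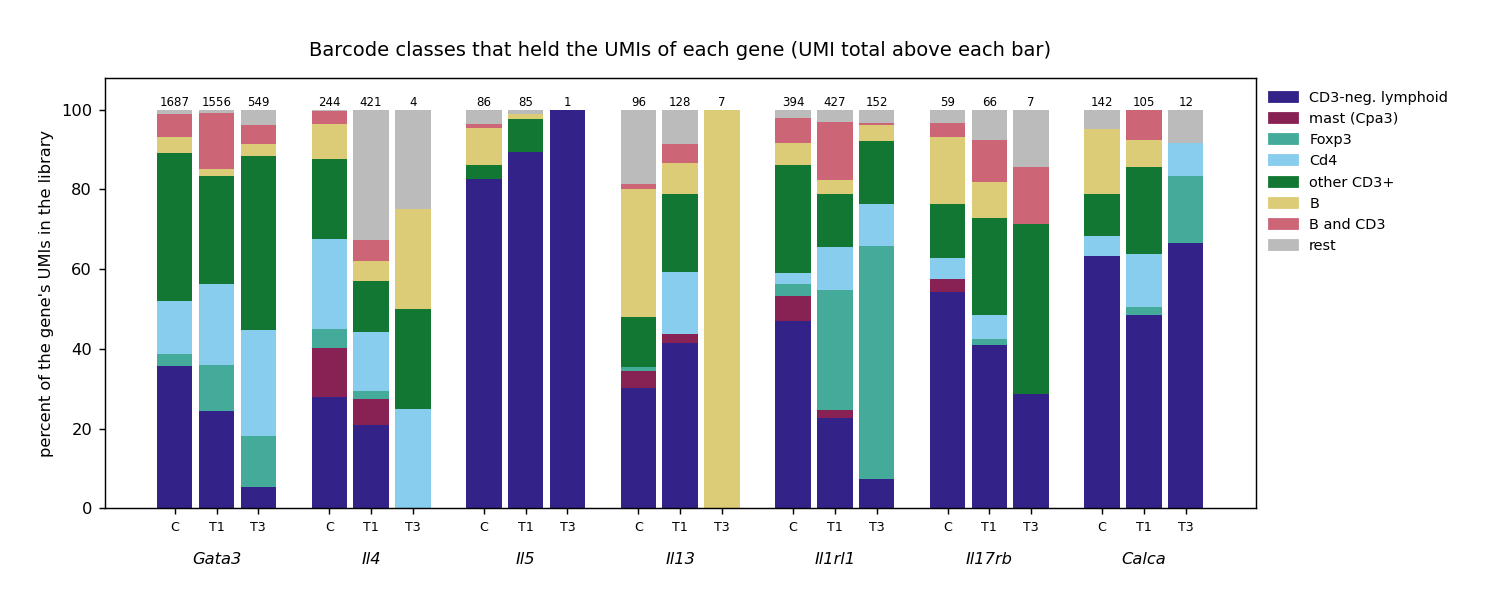
Share of each gene's UMIs, in percent of the library's total for that gene (number above each bar), in the barcode classes, with 1 stacked bar per library C, T1 and T3. The largest Il1rl1 share is CD3-negative lymphoid in C (46.9%) and Foxp3 in T3 (58.6%), and the T3 bars of Il5, Il13, Il4, Il17rb and Calca rest on 1 to 12 UMIs.

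Gata3, the transcription factor of the group, was highest in CD3-negative lymphoid barcodes of C and T1. There it stood at 590.4 CPM in C (601 UMIs, 95% interval 544.1 to 639.5), 640.5 in T1 (378 UMIs, 577.6 to 708.5) and 213 in T3 (30 UMIs, 144 to 304). C and T1 overlapped and T3 was below both. The log2 ratio of T1 to C was 0.12 (-0.07 to 0.31), that of T3 to C -1.47 (-2.05 to -0.94) and that of T3 to T1 -1.59. A single T3 barcode held 11 of the 30 UMIs; without the top barcodes the ratio of T3 to C was -2.003. After each barcode was thinned to 1000 UMIs, which left out 1, 13 and 13 shallower ones, 35.7, 35.3 and 18.4% had a Gata3 UMI, against 71.0, 58.3 and 27.5% before thinning.

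The Gata3 level in the class was carried by the barcodes without NK, ILC1 or ILC3 markers, at 811, 814 and 277 CPM in C, T1 and T3. Barcodes with NK or ILC1 genes had 148, 164 and 90.0 CPM, the last from 4 UMIs. Foxp3 barcodes followed with 137 CPM in C (101.2 to 181), 107 in T1 (91.9 to 124) and 174 in T3 (136 to 220), and Cd4 barcodes with 94.6, 73.8 and 56.0 CPM. In T3 the intervals of the CD3-negative and Foxp3 classes overlapped, so their order there was not resolved. Neither Foxp3 nor Cd4 barcodes passed the 2-fold rule for Gata3 in any comparison; in Cd4 barcodes T3 against C gave -0.76 on the log2 scale (-1.07 to -0.45). B barcodes stood at 4.68, 1.71 and 5.50 CPM, with a Gata3 UMI in 13 of 2632, 15 of 2934 and 6 of 879, and mast barcodes had 1 UMI in C and 1 in T1.

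**Figure D2:**
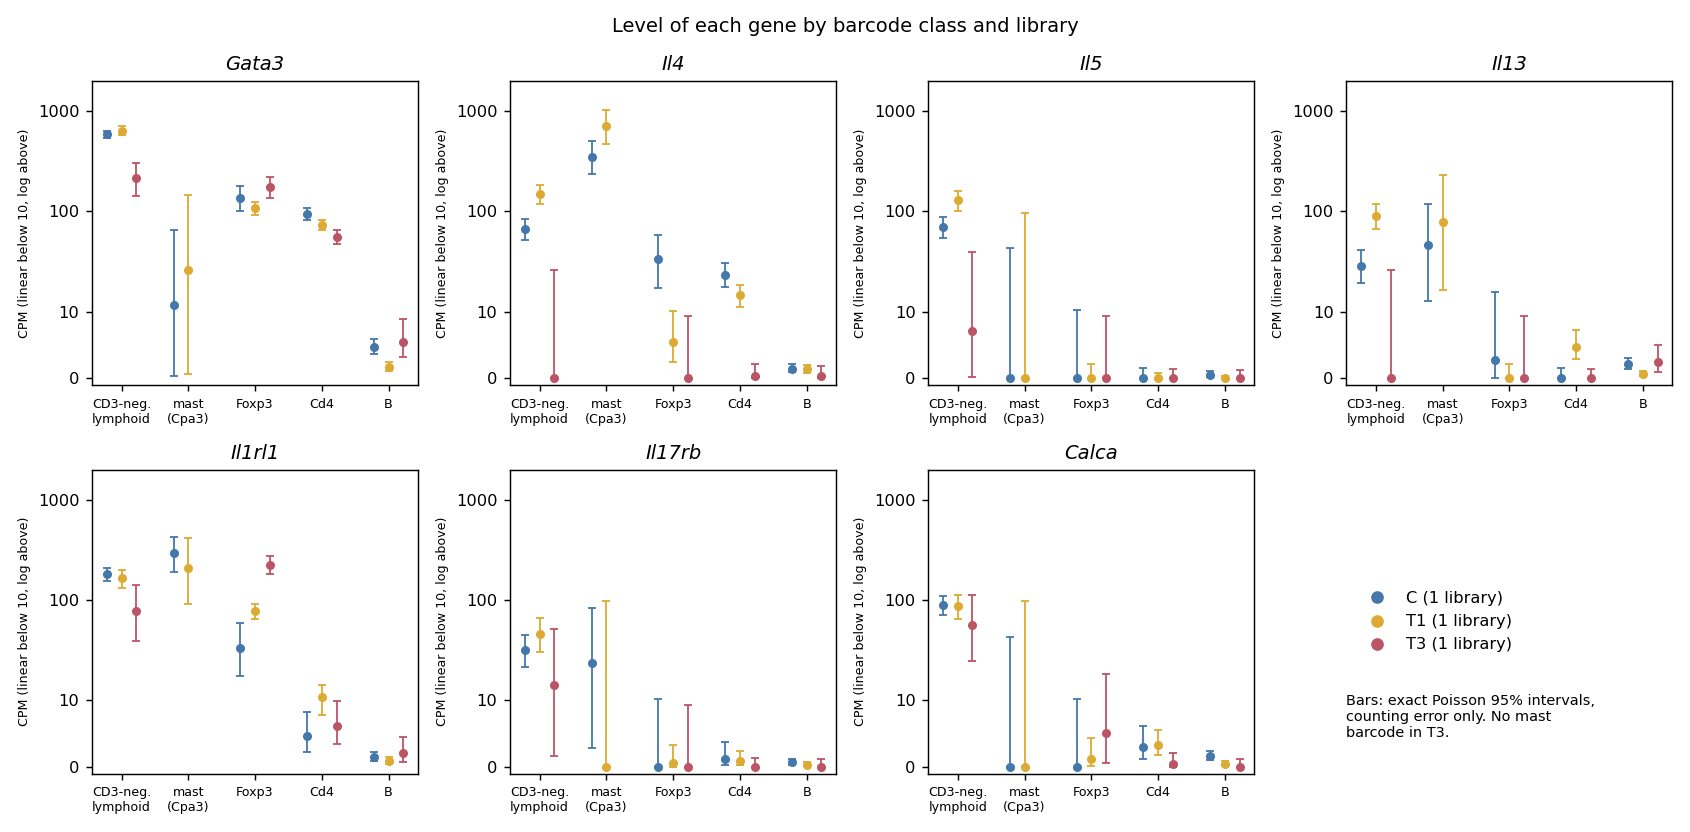
Level of the 7 genes in CPM (axis linear below 10 and logarithmic above) in 5 barcode classes, with C in blue, T1 in yellow and T3 in red; points are summed levels of 1 library and bars exact 95% Poisson intervals. Gata3 is highest in CD3-negative lymphoid barcodes of C and T1, and Il1rl1 in Foxp3 barcodes is ordered C, T1, T3 from 33.5 to 225 CPM.

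Il1rl1, the IL-33 receptor, was lower in T3 in the CD3-negative lymphoid class and higher in T3 in the Foxp3 class, each against C. In CD3-negative lymphoid barcodes it stood at 182 CPM in C (185 UMIs in 64 barcodes), 164 in T1 (97 UMIs in 39) and 78.2 in T3 (11 UMIs in 5). T3 was lowest and C and T1 overlapped: the log2 ratio of T1 to C was -0.14, that of T3 to C -1.22 (-2.24 to -0.34) and that of T3 to T1 -1.07. The T3 to C ratio was under 2-fold, at -0.62, without the mitochondrial filter, at -0.95 with a maximum of 10% mitochondrial UMIs, and at -0.75 when at least 3 lymphoid UMIs were required. The T3 to T1 ratio was -0.35, -0.88 and -0.63 under these settings.

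In Foxp3 barcodes Il1rl1 stood at 33.5 CPM in C (12 UMIs in 8 of 60 barcodes, 95% interval 17.3 to 58.5), 77.1 in T1 (129 UMIs in 40 of 267, 64.4 to 91.6) and 225 in T3 (89 UMIs in 17 of 84, 180 to 276). The 3 intervals did not overlap. T3 was 6.70-fold above C, a log2 ratio of 2.75 (1.87 to 3.75), and the log2 ratios of T1 to C and T3 to T1 were 1.20 (0.35 to 2.19) and 1.54 (1.14 to 1.94). Of the 7 genes, 3 had enough UMIs to be tested in T1 against C, 2 in T3 against C and 2 in T3 against T1. Among those tested 1, Il1rl1, was higher in each comparison. Beside it, 2.71% of tested genes were higher in T1 against C, 5.31% in T3 against C and 4.4% in T3 against T1. Before thinning, the share of barcodes with a UMI moved less than the level, from 13.3% through 14.98% to 20.2%. After thinning it ran from 1.70% through 5.68% to 9.33%. In B barcodes, with median depths of 4678, 5034 and 3385 UMIs against 4968, 6066 and 4437, the share was at most 0.456%.

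A single Foxp3 barcode of C with 41 Cpa3 UMIs, the mast cell carboxypeptidase, held 3 of the 12 Il1rl1 UMIs, and without it C stood at 26.3 CPM, the log2 ratio of T1 to C was 1.55, and T3 was 8.55-fold above C. On thinned barcodes the ratios were 2.84 and 3.82, with an Il1rl1 UMI in 1 of 59 C barcodes, too few for a firm value. The T1 to C ratio was under 2-fold, at 0.97 with 1 CD3 UMI allowed in the CD3-negative gate, at 0.56 with B barcodes defined from 5 UMIs and at 0.70 when Cd3g was left out as well. The T3 to T1 ratio was 0.89 with barcodes weighted equally and 0.99 on thinned barcodes. Of the Foxp3 barcodes, 25, 88 and 39 rested on exactly 1 Foxp3 UMI.

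Foxp3 barcodes with an Il1rl1 UMI, 8, 40 and 17 in C, T1 and T3, carried other transcripts at different levels from those without; this split was chosen after values were seen. Gata3 stood at 176, 335 and 383 CPM with and at 130, 71.8 and 104 CPM without an Il1rl1 UMI, log2 ratios of 0.43 (-0.79 to 1.5), 2.22 (1.78 to 2.67) and 1.87 (1.15 to 2.61). The difference exceeded counting error in T1 and T3 and not in C. The 8 C barcodes include the Foxp3 barcode with 41 Cpa3 UMIs, which held 3 Il1rl1 and 0 Gata3 UMIs among its 15595 UMIs. The C values of this split were not computed without it. Klrg1, an inhibitory receptor of differentiated lymphocytes, was higher in the barcodes with Il1rl1 by log2 ratios of 1.88, 2.83 and 4.83. Areg, which encodes the repair factor amphiregulin, was higher by 3.44, 2.28 and 0.77, and Ikzf2, which encodes Helios, by 0.83, 2.20 and 1.27. Il10, the suppressive cytokine, differed the other way, by -0.71 and -0.99 in C and T1, and in T3 all 27 of its UMIs were in barcodes without Il1rl1. In C, though, Il10 was found in 6 of the 8 barcodes with Il1rl1 and 17 of the 52 without, so the share of barcodes ran against the CPM there and no order is read from it. Icos, a costimulatory receptor, differed by 0.09, -0.06 and -0.16. Median depths with and without were 4716 and 5128 UMIs in C, 4944 and 6182 in T1, and 5499 and 4060 in T3.

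**Figure D3:**
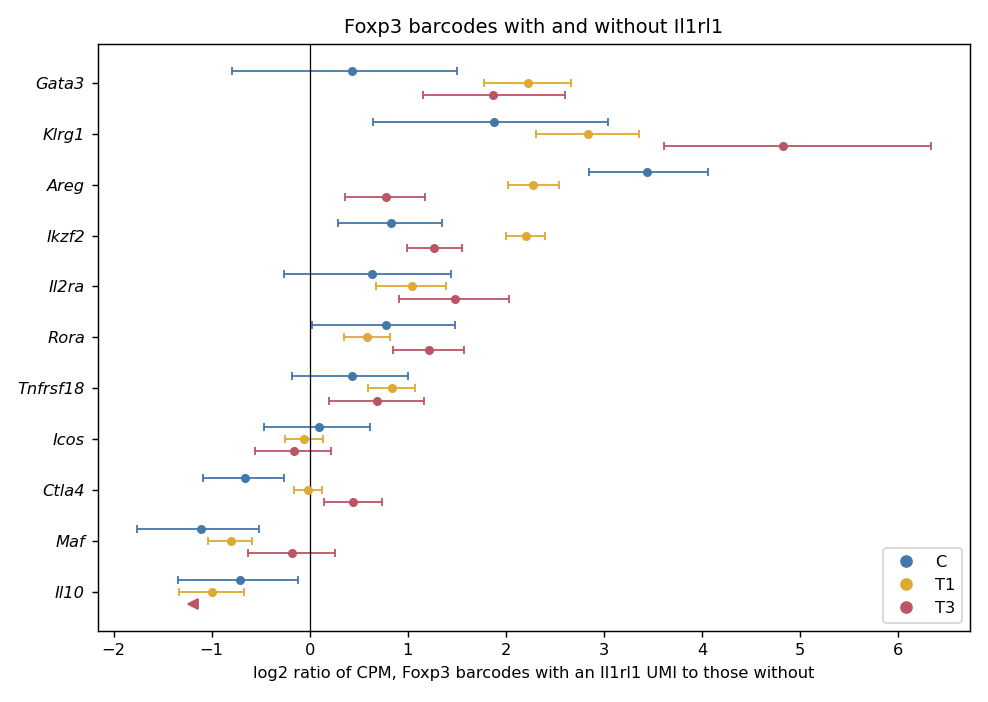
Log2 ratio of CPM in Foxp3 barcodes with an Il1rl1 UMI to those without, for 11 genes, with points for C, T1 and T3 and bars for 95% counting intervals; the arrow for Il10 in T3 is an upper bound, as no UMI was found with Il1rl1. Klrg1 lies above 0 in all 3 libraries (1.88 to 4.83), Gata3 beyond its interval in T1 and T3, and Icos near 0. The C points include the Foxp3 barcode with 41 Cpa3 UMIs.

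Il1rl1 was low in Cd4 barcodes, at 4.64, 10.7 and 6.13 CPM from 11, 46 and 16 UMIs in 5, 18 and 5 barcodes. T1 was higher than C by a log2 ratio of 1.21 (0.24 to 2.31), and by 1.95 without the barcode of most UMIs in each; the ratio was 0.93 when Cd3g was not used. In mast barcodes it was at 292 CPM in C (25 UMIs in 9 of 11) and 210 in T1 (8 UMIs in 3 of 4), with overlapping intervals. In C its order was therefore mast and CD3-negative lymphoid, then Foxp3, Cd4 and B, where B was at 1.52 CPM. In T3 Foxp3 barcodes stood above the CD3-negative class, 180 to 276 against 39.0 to 140 CPM.

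Il17rb, the IL-25 receptor chain, had few UMIs. CD3-negative lymphoid barcodes held 32 in C (31.4 CPM, 24 barcodes), 27 in T1 (45.8 CPM, 17 barcodes) and 2 in T3 (14.2 CPM, 2 barcodes). The 3 intervals overlapped, with a log2 ratio of 0.54 (-0.25 to 1.33) for T1 and -1.15 (-4.25 to 0.83) for T3 against C. All of these UMIs were in barcodes without NK, ILC1 or ILC3 markers. Foxp3 barcodes had 0, 1 and 0 UMIs and Cd4 barcodes 3, 4 and 0.

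Il4 and Il13 were higher in T1 than in C in the CD3-negative class, and all 3 cytokine genes were at or near 0 in T3. Il4 stood at 66.8 CPM in C (68 UMIs in 28 barcodes), 149 in T1 (88 UMIs in 21) and 0 in T3. Il13 stood at 28.5 CPM (29 UMIs in 13 barcodes), 89.8 (53 UMIs in 15) and 0. Il5 stood at 69.7 CPM (71 UMIs in 22 barcodes), 129 (76 UMIs in 9) and 7.11, the last from 1 UMI. The floor of 3 UMIs was 21.3 CPM in T3, against 2.95 in C and 5.08 in T1, so a gene at up to 21.3 CPM could give no UMI there.

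Il4 and Il13 were 2 of the 7 genes counted as higher in T1 than in C, by log2 ratios of 1.16 (0.69 to 1.64) and 1.66 (0.98 to 2.36), beside 2.58% of tested genes; none of the 7 was lower, beside 1.82%. Their median log2 ratio was 0.54 against -0.00 over all tested genes. Il5 was at 0.88 (0.40 to 1.37), short of 2-fold, with 40 of its UMIs in 1 barcode of C and 37 in 1 of T1, and at 1.13 without both. Another T1 barcode, with 27 Il5 UMIs, remained in the value of 1.13, which therefore still rested on few barcodes. A single T1 barcode held 20 of 53 Il13 UMIs, and without the top barcodes the Il13 ratio was 1.51. The shares of barcodes with a UMI overlapped, at 18.1% in C and 18.3% in T1 for Il4 and at 8.39 and 13.04% for Il13.

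Both calls depended on the gate. When barcodes with a Trac UMI or more than 1 Trbc UMI were also left out, 24, 42 and 20 of 155, 115 and 51 barcodes remained in C, T1 and T3, with 9 Il13 UMIs in C and 1 in T1, a log2 ratio of -3.70, and with 0 and 1 Il4 UMIs. That gate removed 48 of the 52 C barcodes and 26 of the 30 T1 barcodes that had at least 3 of the 7 genes. Median depth in the remaining barcodes was 2576, 1652 and 1186 UMIs, against 6958, 5637 and 1381 in the class. The Il4 ratio was 0.96 with 1 CD3 UMI allowed, 0.83 with barcodes weighted equally and 0.13 on thinned barcodes.

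In T3 against C, 5 of the 7 genes were lower in the class, beside 4.03% of tested genes lower and 9.5% higher: Gata3, Il1rl1, Il4, Il5 and Il13. A gene at 0 in a library entered the count by its interval. For such a gene the fold used the floor of 3 UMIs in place of 0, leaving out counting error in the other library. Il4 was 3.13-fold lower by this measure, and its log2 interval had an upper limit of -1.31. Il13 was 1.34-fold lower, with an upper limit of -0.03. A 2-fold difference was thus not shown for Il13 and 4 of the 7 remained without it. Il5 was at -3.29 (-8.62 to -0.77) on the log2 scale with 1 UMI in T3. Calca at -0.64 and Il17rb were not called. The same 5 were lower in T3 against T1, beside 4.51% lower and 8.49% higher. From the floor, Il4 was 6.99-fold and Il13 4.21-fold lower, with upper limits of -2.48 and -1.73, and Il5 was at -4.18. The comparison rests on 51 barcodes and 140672 UMIs in T3, of which 37 barcodes held haemoglobin UMIs, against 14 of 155 in C and 1 of 115 in T1. Haemoglobin summed to 19.7, 1.70 and 4351 CPM in the class, and 18 of the 51 T3 barcodes met the lymphoid minimum exactly, against 5 and 20 in C and T1. The part of these in the result was not tested.

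**Figure D4:**
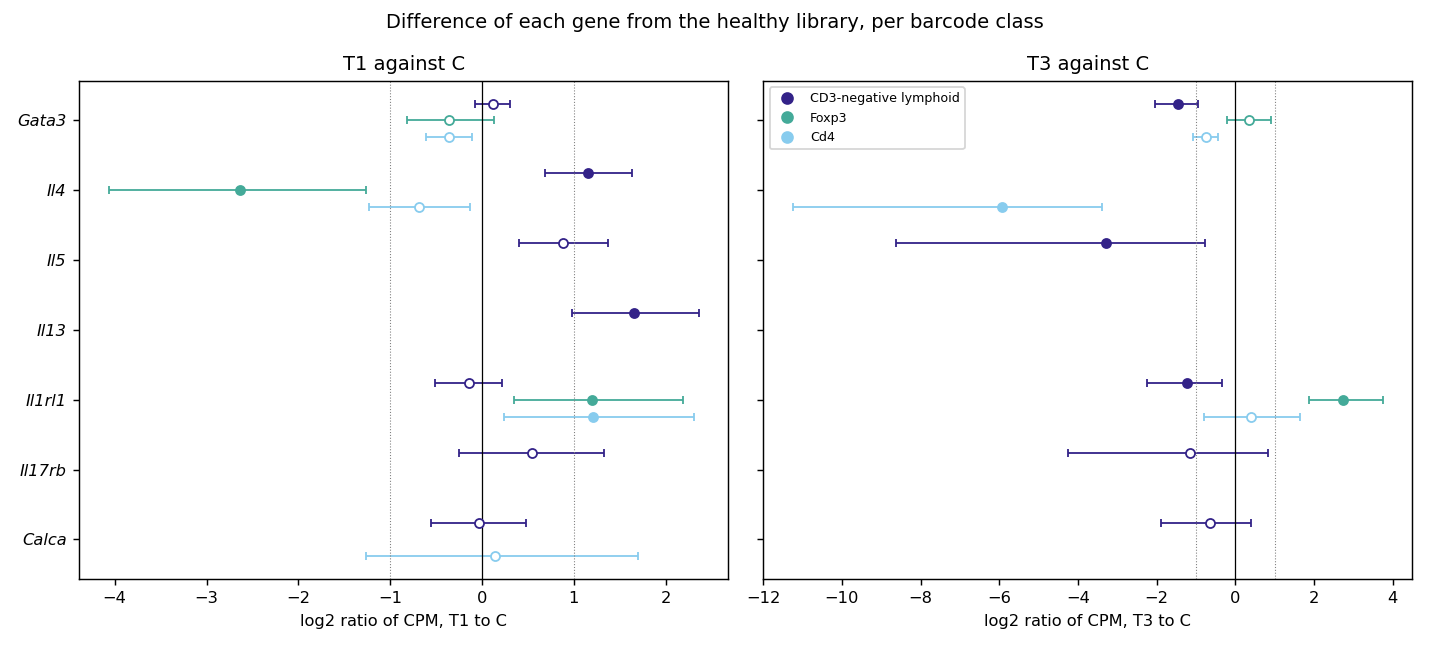
Log2 CPM ratios of T1 to C (left) and T3 to C (right) for the 7 genes in CD3-negative lymphoid, Foxp3 and Cd4 barcodes; bars are 95% counting intervals, filled points met the 2-fold rule, dotted lines mark 2-fold, the panels differ in scale, and genes with under 20 UMIs or with 0 in a library are not drawn. Il1rl1 lies at 2.75 in Foxp3 and -1.22 in CD3-negative lymphoid barcodes in T3 against C.

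Among T cells, Il4 was found in Cd4 barcodes and Il5 was not. Il4 stood at 23.2 CPM in C (55 UMIs in 13 barcodes), 14.5 in T1 (62 UMIs in 31) and 0.383 in T3 (1 UMI), so C and T1 were high and T3 was below both. A single C barcode held 35 UMIs; the log2 ratio of T1 to C was -0.68 with and 0.43 without the top barcodes. T3 was lower than C by a log2 ratio of -5.92 (-11.3 to -3.38) and lower than T1 by -5.24. Il5 had no UMI in 378, 649 and 548 Cd4 barcodes. All 20 Il13 UMIs of the class were in 1 T1 barcode, which also held 6 Gata3, 4 Il1rl1 and 3 Il4 UMIs.

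Of the 7 genes, 5 had enough UMIs to be tested in Cd4 barcodes in T1 against C, 3 in T3 against C and 4 in T3 against T1. Among those tested, 2 were thus higher in T1 than in C, Il1rl1 and, through that 1 barcode, Il13, beside 2.1% of tested genes. None was lower, beside 1.17%. In T3 1, Il4, was lower than in C, beside 5.76% of genes lower and 3.88% higher. Against T1, 2 genes, Il4 and Il13, were lower in T3, beside 6.51% lower and 3.84% higher. Barcodes with a UMI of Il4, Il5 or Il13, 13 in C and 31 in T1, had Gata3 at 250 and 225 CPM, and the others at 87.99 and 65.0 CPM. These differences, 1.51 and 1.79 on the log2 scale, come from a split chosen after values were seen.

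Foxp3 barcodes had almost no type 2 cytokine. Il5 had 0 UMIs in all 3 libraries and Il13 1, 0 and 0. Il4 had 12 UMIs in C and 9 in T1, of which 11 and 8 were in 1 barcode each, and 0 in T3. By the rule Il4 was lower in T1 than in C, at -2.64, beside 2.4% of genes; without the top barcodes each library had 1 UMI. Against C or T1, only Gata3 and Il1rl1 had enough UMIs to be tested in T3. Neither was lower, beside 4.39 and 3.8% of tested genes. Il4 had too few UMIs to be tested there, so no call was possible. Its log2 interval for T3 against C had an upper limit of -1.62.

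Mast barcodes carried Il4 and Il1rl1 without Il5 or Calca. Il4 stood at 350 CPM in C (30 UMIs in 6 of 11 barcodes) and 709 in T1 (27 UMIs in 4 of 4). The T1 level was 321 CPM without 1 barcode, near the 350 CPM of C, which held 19 Il4 UMIs, 62 UMIs of the basophil protease Mcpt8 and none of the mucosal mast cell protease Mcpt1. Of the C barcodes, 2 also held Mcpt8, with 333 and 28 UMIs. Il13 had 4 and 3 UMIs. No barcode of 4543 in T3 met the Cpa3 gate, which allows a share of up to 0.0812%. In T1, 1 barcode outside all classes held 127 Il4 UMIs, 30.2% of the 421 in the library, with 8 Il13, 2 Il1rl1, 5 Gata2 and 3 Mcpt8 UMIs and no Cpa3; it was singled out after values were seen.

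Calca was as high in T1 as in C in CD3-negative lymphoid barcodes, at 86.4 CPM (51 UMIs in 14 barcodes) and 88.4 CPM (90 UMIs in 18 barcodes), a log2 ratio of -0.03. In C 1 barcode held 35 of the UMIs, and without it C stood at 54.4 CPM; T1 stood at 72.3 CPM without its top barcode. In T3 all 8 Calca UMIs were in 1 barcode, so the 56.9 CPM there rested on a single cell. Mast barcodes had no Calca UMI, and Foxp3 barcodes 0, 2 and 2.

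The 7 genes met in the same barcodes. At least 3 of them were found in 88, 59 and 5 barcodes of the libraries C, T1 and T3, and 52, 30 and 3 of these were CD3-negative lymphoid without NK, ILC1 or ILC3 markers, 52.5, 36.1 and 7.89% of that subgroup. In it, 7 of 99, 28 of 83 and 27 of 38 barcodes had none of the 7. Barcodes with NK or ILC1 genes, 54, 26 and 11, held no UMI of Il4, Il5, Il13, Il17rb or Calca. Of all barcodes with Il5, 25 of 28 in C and 14 of 15 in T1 also had Gata3, and of those with Il17rb, 36 of 42 and 36 of 44. The share was lower for Il4, with Gata3 in 61 of 92 and 56 of 95 barcodes, and for Il1rl1, with 120 of 160 in C, 113 of 159 in T1 and 26 of 46 in T3. In the subgroup Il13 was found with Il4 in 8 of 13 barcodes of C and 14 of 15 of T1. A deeper barcode can show more of the genes, and the subgroup's median depth was 7048, 6132 and 1265 UMIs.

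**Figure D5:**
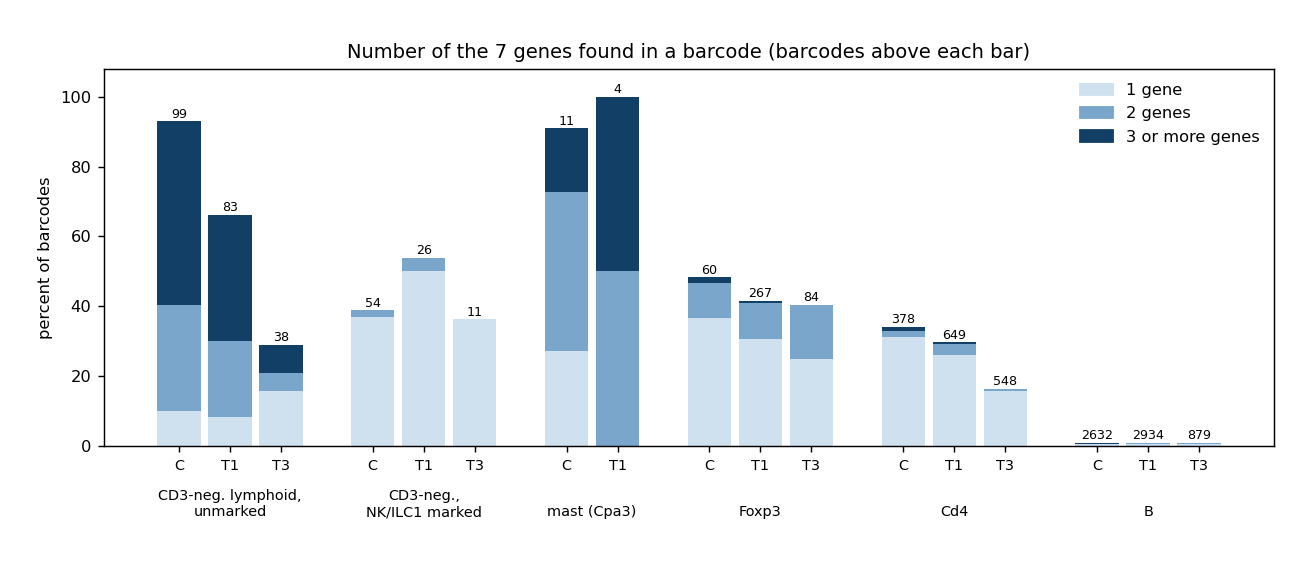
Percent of barcodes in each class and library that had UMIs of 1, 2 or at least 3 of the 7 genes (stacked), with the number of barcodes above each bar. CD3-negative lymphoid barcodes are drawn as those without NK, ILC1 or ILC3 markers and, apart, those with NK or ILC1 genes. At least 3 genes were found in 52 of 99, 30 of 83 and 3 of 38 of the former in C, T1 and T3. They were found in 2 of 11 and 2 of 4 mast barcodes of C and T1, and were rare in Cd4, Foxp3 and B barcodes.

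Part of the signal lay outside the CD3-negative gate. Among other CD3-positive barcodes, a subgroup with Cd3g as the only CD3 transcript and no Trac, chosen after values were seen, held at least 3 of the 7 genes in 7 of 66, 4 of 40 and 0 of 124 barcodes and Gata3 at 331, 400 and 23.8 CPM. In the whole of that class 6 of the 7 genes had enough UMIs to be tested in T1 against C. Of these, 3 were higher in T1 (Il13, Il17rb and Calca, from 12, 8 and 15 UMIs in C), beside 1.43% of genes higher and 4.04% lower. The Il13 ratio fell from 1.52 to 0.79, under 2-fold, without the top barcodes, as 15 of its 25 T1 UMIs were in 1 barcode. Of 3 tested, Il1rl1 and Il4 were lower in T3 than in C, at -1.53 and -5.01 on the log2 scale, beside 11.7% of genes lower and 4.83% higher. Against T1, 4 of 5 tested, Il4, Il13, Il1rl1 and Calca, were lower in T3, beside 5.67% lower and 3.54% higher.

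In B barcodes no member exceeded 5.50 CPM. Barcodes with at least 3 of the 7 genes numbered 7, 3 and 1 there, all with at least 2 lymphoid UMIs and a median of 7, 9 and 2 B-gene UMIs against 19, 17 and 9 in the class. Gata3, Il13 and Calca were lower in T1 than in C, beside 4.09% of genes lower and 0.824% higher. In C single barcodes held 21 of 68 Gata3, 13 of 31 Il13 and 13 of 23 Calca UMIs. Without the top barcodes the log2 ratios were -1.285, -3.29 and -1.86. Calca had 23 UMIs in C and 0 in T3, 1.53-fold lower from the floor, with an upper limit of -0.20 on the log2 scale. It was thus short of a shown 2-fold, beside 5.12% of genes lower and 5.63% higher in T3 against C. Gata3 was higher in T3 than in T1, at 1.69, beside 5.92% higher and 1.74% lower, and at 0.38 without the top barcodes.

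The wider pathway in CD3-negative lymphoid barcodes was read from lists of 9 ligands, 20 receptors, 18 signalling and transcription genes and 3 enzymes. Of the ligands 2 had enough UMIs: Csf2, which encodes GM-CSF, at 604 CPM in C, 424 in T1 and 142 in T3, and Areg at 418, 466 and 56.9. Neither met the rule in T1 against C and both were lower in T3 against C, at -2.09 and -2.88, but all 20 Csf2 UMIs of T3 were in 1 barcode. Arg1, arginase, which ILC2 use in metabolism, stood at 326, 136 and 78.2 CPM, in 84, 29 and 2 barcodes. It was lower in T1 by -1.27 and in T3 by -2.06, the latter with 10 of 11 T3 UMIs in 1 barcode and at -5.36 without the top barcodes.

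Among receptors, 1 of 14 tested was higher in T1 than in C, Ccr4, at 1.15, and none lower. In T3 against C 2 of 12 tested, Il17ra and Il4ra, were higher, at 1.56 and 1.04, and 1, Crlf2, the TSLP receptor chain, was lower at -1.23. Among signalling genes 1 of 17 tested, Stat5a, was higher in T1 (1.15) and 1 of 16, Stat5b, in T3 (1.92). Over all genes tested in the class 2.58% were higher in T1, and 9.5% were higher and 4.03% lower in T3. The alarmins had few UMIs in these leukocyte libraries: Il33 6, 7 and 0, Il25 0, 0 and 1, and Tslp 3, 1 and 3 over all barcodes of C, T1 and T3.

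Ifng and Il22 represent other immune types. Ifng, the type 1 cytokine, stood at 226, 193 and 604 CPM in CD3-negative lymphoid barcodes of C, T1 and T3, and T3 was higher than C by 1.42, with 62 of 85 UMIs in 1 barcode and a ratio of -0.22 without the top barcodes. Il22 of the type 17 set had 195, 21 and 1 UMIs, in 1 barcode of each library. In Foxp3 barcodes, beside Il1rl1, Penk, which encodes enkephalin, stood at 8.38, 52.0 and 469 CPM, with 114 of 186 T3 UMIs in 1 barcode, and Il10 at 785, 681 and 68.1. Of 17 signalling genes tested in T1 against C, Id2, Rora and Stat5a were higher, beside 2.71% of all genes, and Gfi1 was lower, beside 2.4%. Of 15 tested in T3 against C, the same 3, Stat5b and Tcf7 were higher, beside 5.31%, and none was lower.

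Other genes were ranked by how their profile followed each of the 7 over 19 class and library sums, by Pearson's r of log2(CPM + 10) over 10746 genes. Sums of 1 library share its depth, so these values are a description. Gata3 was followed most closely by Xlr4a (0.971), Xlr4c (0.965) and Ptpn13 (0.937), and Il1rl1 by Ero1l (0.934), Nr3c1 (0.912) and Hspa13 (0.907). Il5 was followed by Bmp2 (0.974), Sema6d (0.968) and Sept8 (0.965), Calca by Pard3 and Plxdc2 (both 0.981) and Igsf5 (0.977), and Il17rb by Slc7a8 (0.947), Lmo4 (0.938) and Dnmbp (0.928). Il13 was followed by Slc6a13 (0.904).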

How the data were processed

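The files hold raw UMI counts per gene and barcode, as deposited by the authors. The submitters' processing notes name GRCm38 as the build and, without roles, Seurat 3.1.4, Cell Ranger 3.1.0 and CASAVA 1.8. The annotation release and the treatment of intronic reads were not given in the sources used here. No cell annotation was used, so classes were rebuilt from raw counts of marker genes, and no doublet caller was run. Barcodes with both CD3 and at least 2 B-gene UMIs formed a mixed class that is not compared on its own here. Its UMIs were part of the sums over all kept barcodes. It held 5.81 and 14.0% of Gata3 UMIs and 6.35 and 14.5% of Il1rl1 UMIs in C and T1. Doublets within the other classes remain possible.

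From these counts, UMIs were summed per class and library and scaled to counts per 1000000 UMIs (CPM); ratios carry exact conditional 95% intervals, levels exact Poisson and shares exact Clopper-Pearson ones. Library totals were 35489195, 37208603 and 15898397 UMIs in C, T1 and T3. Python 3.11.15, numpy 2.4.6, scipy 1.17.1 and pandas 2.3.3 were used, and the ratio code was tested on simulated data. All 7 genes are named in every class; other names come from pathway lists and from the 3 genes of highest correlation, not all of which are reported here. The genes and lists were chosen with earlier results of these data known.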

Additional observations from a re-analysis of the deposited data

Results flagged for a closer look

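Several genes met the 2-fold rule in opposite directions in 2 barcode classes under the same pair of libraries. None of these differences between classes was tested, since each class had 1 library per group, and the classes share those libraries.

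Il1rl1, the IL-33 receptor, differed in T3 against C by a log2 ratio of 2.75 in Foxp3 barcodes, -1.53 in other CD3-positive barcodes and -1.22 in CD3-negative lymphoid barcodes. In T3 against T1 its ratios were 1.54, -1.10 and -1.07 in the same order of classes. Gata3 differed in T3 against T1 by -1.59 in CD3-negative lymphoid barcodes and 1.69 in B barcodes, where 11 of 16 T3 UMIs were in 1 barcode.

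In T1 against C, Il13 was higher in CD3-negative lymphoid barcodes (1.66) and other CD3-positive barcodes (1.52, and 0.79 without the top barcodes). Il13 was lower in B barcodes (-1.76). There 11 and 13 of its 31 C UMIs were in 1 barcode each, and 8 of its 10 T1 UMIs in 1. Calca was higher in other CD3-positive barcodes (1.08) and lower in B barcodes (-1.84), where 1 barcode held 13 of its 23 C UMIs. Il4 was higher in CD3-negative lymphoid barcodes (1.16) and lower in Foxp3 barcodes (-2.64), the latter on 1 barcode in each library.

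Barcodes that entered no class, because they had fewer than 200 genes or more than 20% mitochondrial UMIs, numbered 1899, 2423 and 1236 in C, T1 and T3. Some of the genes had more than 2 times the floor of 3 UMIs there, a limit chosen after values were seen; the others, Il5 and Il13 in every library among them, had at most 6 UMIs. Gata3 stood at 29 CPM in C, 24.1 in T1 and 30.3 in T3, and Il1rl1 at 10.7, 4.61 and 15.1 CPM. In C Il17rb was at 4.01 CPM, and in T1 Calca was at 3.90 CPM and Il4 at 4.61 CPM.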

How the results depend on the processing

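Of 398 alternative values of 34 ratios of the 7 genes, 371 lay inside the original counting interval. They came from 8 settings planned and 5 chosen after seeing the data. Of the 174 values for the 15 ratios past the 2-fold rule, 173 kept their direction. The exception was Il13 in T1 against C in CD3-negative lymphoid barcodes, at -3.70 without barcodes holding T cell receptor transcripts. Ratios with 0 UMIs in a library, such as Il4 and Il13 in T3 against C in this class, did not enter these counts. A setting that left 0 UMIs in a library gave no value either. For Il4 in T1 against C, the T cell receptor setting left 0 UMIs in C and 1 in T1. In that class and setting Gata3 was at -2.17 in T3 against C, and Il5 at -0.11 and Il1rl1 at 0.43 in T1 against C. On barcodes thinned to 1000 UMIs, T1 against C gave 0.13 for Il4 in CD3-negative lymphoid barcodes, -0.10 for Gata3 in Cd4 barcodes and 2.84 for Il1rl1 in Foxp3 barcodes, and T3 against C gave 3.82 for the last. The cause was not tested.

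The share of CD3-negative lymphoid barcodes was 3.18, 2.75 and 2.33% in C, T1 and T3 with 1 CD3 UMI allowed, 3.26, 2.38 and 1.81% without Cd3g, and 3.41, 2.59 and 1.92% with B barcodes also defined from 5 UMIs. T1 and T3 gave 2.33 and 1.91% without the mitochondrial filter and 1.55 and 0.726% with at least 3 lymphoid UMIs. With classes called after thinning they gave 2.39 and 3.08%, so T3 was then highest.

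Counts of genes past the rule, in either direction, depended on the UMI minimum. With at least 100 UMIs they fell from 290 to 41 (T1 against C) and from 769 to 230 (T3) in CD3-negative lymphoid barcodes, from 362 to 104 and from 431 to 64 in Foxp3 barcodes, and from 305 to 88 and from 853 to 293 in Cd4 barcodes. With no minimum they were 490 for T1 in the CD3-negative class and 649 for T3 in the Foxp3 class. Depth was lowest in T3, where the CD3-negative class held 140672 UMIs and 3 UMIs correspond to 21.3 CPM. No paired analysis was possible because each group had 1 library and the labels give no replicate numbers.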
